A study of Bos taurus with 32 samples.

Results

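The hypothalamus was 1 of 4 tissues taken from 8 male Holstein calves, and the libraries described here are those whose names mark them as hypothalamus, 8 of 32 in all. A group of 4 calves, 3208, 3209, 5833 and 5841, grew from embryos produced in vitro (IVP). The other 4, calves 3213, 3217, 3218 and 5932, grew from embryos formed in the body of superstimulated, inseminated donor cows and then collected, a route known as multiple ovulation and embryo transfer (MOET). Embryos of both origins were carried by synchronized recipient cows and the calves were kept in similar conditions. The groups thus share the transfer and differ in the whole route before it, which includes where fertilization and early embryo development took place. The IVP calves and 3 of the MOET calves were 98 to 104 days old at collection, and MOET calf 3213 was 144 days old. Each group had 4 calves with 1 library each, and their parents are not described in the sources used here.

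The hypothalamus joins the brain to the endocrine system: its neurons release hormones into the portal vessels of the median eminence, and these set the output of the anterior pituitary, including the gonadotropins. The pituitary hangs from it by a stalk, and a thin sleeve of pituitary cells, the pars tuberalis, lies along that stalk against the median eminence. A dissected hypothalamus can therefore hold more or less pituitary tissue, and it also mixes neurons, glia, vessels and ependyma. In such bulk RNA, fewer cells of a type and less RNA per cell cannot be told apart.

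Poly(A)-selected RNA was counted per gene, with 20369852 to 22135321 counts in the IVP libraries and 20178727 to 22170502 in the MOET libraries. The table names genes by Ensembl ID only and 0 of 27607 IDs could be paired with a symbol here, so genes are described by their values and rank, and neither hypothalamic nor other cell type markers could be looked up. As a substitute for markers, 528 genes had at least 8-fold higher mean CPM (counts scaled by the library's total) in the hypothalamus than in each of the other 3 tissues. They took 7.77 to 10.04% of the counts in the hypothalamus libraries, and at most 0.266% in any library of another tissue, which describes how the list was made.

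Of 16066 genes tested, 9 (0.0560%) differed between IVP and MOET hypothalami at an adjusted p under 0.05, with edgeR's quasi-likelihood test and Benjamini-Hochberg adjustment. Of these, 8 (0.0498%) were higher in IVP and 1 (0.00622%) was lower. Before adjustment 3853 genes (24.0%) had p under 0.05, 1946 of them higher (12.1%) and 1907 lower (11.9%). The 4 IVP and 4 MOET values did not overlap for 1605 genes (9.99%), 792 higher (4.93%) and 813 lower (5.06%). The called genes fall into 3 kinds. In 5, counts were read in every IVP hypothalamus and almost never in a MOET one. Another 3 were higher in IVP while present in all 8 libraries, and 1 was lower in IVP. All 9 were chosen by p in these libraries, which favours groups without overlap and with little spread.

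Gene ENSBTAG00000021565 had the smallest p. It had 697, 1215, 1073 and 621 counts in IVP hypothalami 3208, 3209, 5833 and 5841, against 2, 0, 1 and 0 counts in MOET hypothalami 3213, 3217, 3218 and 5932. At TMM-scaled library sizes (trimmed mean of M values, edgeR's correction for RNA composition) it averaged 39.8 ± 13.3 CPM in IVP (SD, n = 4), while the MOET group held 3 counts in all. The ratio of the summed counts, IVP over MOET, was 1188 with an exact 95% interval of 406 to 5764 that covers counting error only, and its adjusted p in edgeR was 2.13e-04. Its call held under all 17 alternative settings, each calf left out in turn included.

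Gene ENSBTAG00000024901 was the second by p, at a far lower level. It had 50, 72, 77 and 66 counts in IVP hypothalami, against 1 count in MOET 3213 and 0 in the other 3 MOET hypothalami. Its IVP mean was 2.92 ± 0.515 CPM (SD, n = 4), the ratio of summed counts was 262 (exact 95% interval 46.6 to 10384), and its adjusted p in edgeR was 0.00186. Without MOET 3213 the adjusted p in edgeR was 0.0508, which ends the call. That calf held the only MOET count, and the log2 fold change was 7.33 with it and 8.97 without it, a size that is uncertain.

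The third, the fourth and the fifth gene by p shared this pattern at about 1 CPM. The third had 30, 29, 33 and 25 counts in IVP 3208, 3209, 5833 and 5841. The fourth had 21, 25, 30 and 20 counts in the same order, and the fifth had 23, 18, 23 and 26. For each of these genes the MOET group held 1 count, in calf 3213, and 0 in the other 3 calves. Their IVP levels were 1.29 ± 0.103, 1.05 ± 0.163 and 0.992 ± 0.143 CPM (SD, n = 4 each). The choice by p in the same libraries favours so small a spread. The ratios of summed counts were 116 (20.4 to 4606), 94.9 (16.6 to 3786) and 89.0 (15.6 to 3552), with adjusted p in edgeR of 0.00569, 0.00925 and 0.00925. The third lost its call without MOET 3213 (adjusted p 0.0880), and the fourth and the fifth lost theirs without MOET 3213, 3217 or 5932 (up to 0.113). Their log2 fold changes were 6.15, 5.86 and 5.77 with all calves, and 7.79, 7.51 and 7.42 without MOET 3213. Without MOET 3217 or 5932 those of the fourth and the fifth were 5.46 to 5.56.

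These 5 genes were all of those with at least 10 counts in every IVP hypothalamus and at most 2 in every MOET one. With the limits set at 10 counts and 1 count, 4 genes were read in IVP only and 0 in MOET only. With 5 counts and 1 count there were 5 and 3, and with 20 counts and 1 count 3 and 0. In the other tissues, at 10 counts and 1 count, 3 genes of the pituitary, 0 of the testicle and 2 of the adrenal were read in IVP only, and 0 in MOET only in each.

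The 3 genes present in all 8 libraries were higher in IVP by 2.10 to 6.90 times in summed counts. The sixth gene by p had 104, 54, 100 and 98 counts in IVP hypothalami, against 14, 14, 7 and 16 in MOET, or 3.90 ± 0.932 CPM in IVP against 0.624 ± 0.153 CPM in MOET (SD, n = 4 each). On the log2 scale the difference was 2.62 with an SE of 0.28 (edgeR, adjusted p 0.0176). The lowest IVP library, 3209, lay above the highest MOET library, 5932.

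The ninth gene had 739, 720, 686 and 623 counts in IVP hypothalami, against 186, 264, 96 and 175 in MOET. Its level was 30.6 ± 3.01 CPM in IVP against 8.84 ± 3.004 CPM in MOET (SD, n = 4 each), 1.79 apart on the log2 scale with an SE of 0.23 (edgeR, adjusted p 0.0496). The eighth had 691, 613, 817 and 599 counts in IVP, against 334, 379, 241 and 325 in MOET. Both sets of IVP values were tight and stood clear of the MOET values, which the choice by p favours. For the eighth the level was 29.8 ± 2.47 CPM in IVP against 15.8 ± 1.88 CPM in MOET (SD, n = 4 each), 0.91 apart on the log2 scale with an SE of 0.12 (edgeR, adjusted p 0.0496). Calls of the sixth, the eighth and the ninth gene were lost in 7, 12 and 10 of 17 alternatives, with the direction kept in each and adjusted p up to 0.152, 0.384 and 0.346.

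The gene that was lower in IVP was also the most abundant of the 9. ENSBTAG00000004924 had 372, 846, 1030 and 610 counts in IVP hypothalami, against 3061, 3264, 2394 and 3390 in MOET. IVP 3208 was the lowest library, and the MOET libraries lay close together above all 4 IVP libraries. The level averaged 31.4 ± 11.8 CPM in IVP against 150.1 ± 10.9 CPM in MOET (SD, n = 4 each), a log2 difference of -2.26 with an SE of 0.27 (edgeR, adjusted p 0.0332). The call was lost in 9 of 17 alternatives (adjusted p up to 0.139), among them age as a covariate and the removal of any MOET calf.

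Below the threshold, the next 11 genes by p were 5 higher in IVP (log2 fold changes of 0.92 to 2.27, adjusted p 0.0601 to 0.103 in edgeR) and 6 lower (sizes of 0.94 to 1.11, adjusted p 0.0761 to 0.103). In all 11 the IVP and MOET values did not overlap, which their choice by p in the same libraries largely fixes. Gene ENSBTAG00000047073, the first of the 6, averaged 7.29 ± 0.707 CPM in IVP against 15.2 ± 2.45 CPM in MOET (SD, n = 4 each). Its log2 difference was -1.06 with an SE of 0.15 (edgeR, adjusted p 0.0761).

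**Figure D1:**
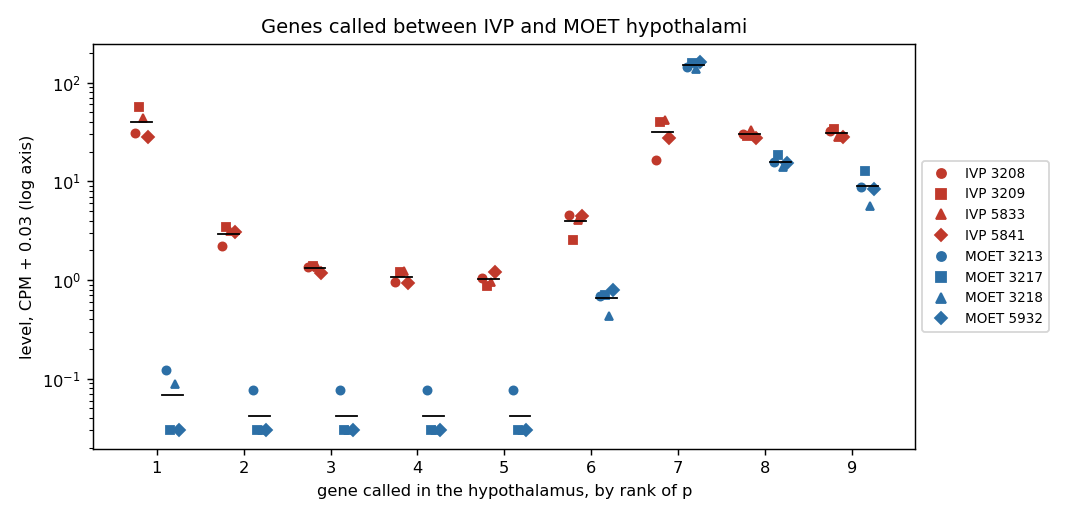
Level of the 9 called genes, in order of p, in each hypothalamus library (CPM at TMM-scaled library sizes plus a small offset, log axis); red points are the 4 IVP calves, blue points the 4 MOET calves, and black lines the group means. Genes 1 to 5 sit at the floor in MOET calves. Genes 6, 8 and 9 are higher in IVP with no overlap, and gene 7 is lower in IVP with no overlap. The choice of genes by p favours such separation.

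The same 8 calves gave a pituitary, a testicle and an adrenal, so each hypothalamic difference could be set against the mean of the IVP over MOET differences in those tissues. By this test, fitted to all 32 libraries with edgeR, 2332 of 18242 genes (12.8%) departed at an adjusted p under 0.05, 1164 more positive (6.38%) and 1168 more negative (6.40%) in the hypothalamus. The count moved between 262 without MOET calf 3213 and 5719 without IVP calf 3209. The fit had no term for the calf, though each calf gave 4 libraries, and its error was drawn from all tissues. For the hypothalamic difference alone it called 2018 genes, against 9 in the fit of the 8 hypothalamus libraries. A value could be had for 7 of the 9 called genes. These were chosen for their hypothalamic difference and the contrast uses the same hypothalamus libraries, so a departure is in part fixed by that choice. The departures below are descriptions, and the levels in the other 3 tissues are what the choice did not use.

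ENSBTAG00000021565 was the exception. It was counted in IVP and nearly absent in MOET in all 4 tissues: the pituitary held 3574 to 4211 counts in IVP against 0 to 1 in MOET, the testicle 814 to 1145 against 1 to 14, and the adrenal 5196 to 23963 against 0 to 1. Its difference of log2 fold changes, hypothalamus minus the mean of the rest, was -2.12 (SE 2.13, adjusted p 0.488 in edgeR). A value fitted to so few MOET counts is uncertain in size.

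ENSBTAG00000024901 had 28 to 41 counts in IVP adrenals against 1 to 9 in MOET adrenals, with a log2 fold change of 2.71 there (SE 0.44, adjusted p 0.00953 in edgeR). In the pituitary it reached 8 to 19 counts in IVP against 0 to 6 in MOET, and was too low to test. The direction was thus the same in the adrenal, while the hypothalamic difference stood 5.33 above the mean of the 3 tissues on the log2 scale (SE 0.99, adjusted p 0.00205 in edgeR). With 1 MOET count in the hypothalamus that size is uncertain, and limma voom gave 2.80.

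The third, the fourth and the fifth gene were close to absent outside the hypothalamus in calves of both origins. The third had 0 counts in all 4 IVP pituitaries and 1 to 3 in MOET pituitaries. The fourth had 1 to 8 counts in IVP adrenals and 0 to 6 in MOET adrenals, and the fifth had 1 to 9 counts in IVP pituitaries and 0 to 4 in MOET pituitaries. The departures of the fourth and the fifth were 5.47 (SE 0.98, adjusted p 0.00164 in edgeR) and 5.71 (SE 1.11, adjusted p 0.00273). They too rest on 1 MOET count each, and limma voom gave 3.80 and 2.93. In the pituitary, testicle and adrenal both genes were too low to test, so the mean set against them also rests on few counts. No value could be given for the third and the sixth, since a group held no count. The sixth was read almost only in the hypothalamus, with at most 4 counts in any other library and 0 in all adrenals.

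ENSBTAG00000004924 went opposite ways in 2 tissues. In the adrenal it was higher in IVP, at 255 ± 114 CPM of the library total against 122 ± 14.2 CPM in MOET (SD, n = 4 each; log2 fold change 1.28, SE 0.29, adjusted p 0.0142 in edgeR). In the testicle its log2 fold change was -0.21 (adjusted p 0.961), and in the pituitary it was under 1 CPM on average in both groups. The hypothalamic difference stood at -2.77 relative to the mean of the others (SE 0.44, adjusted p 8.34e-04 in edgeR).

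The eighth and the ninth gene were expressed in all tissues. The eighth had log2 fold changes of -0.02, 0.21 and 0.11 in the pituitary, testicle and adrenal, and the ninth of 0.16, -0.07 and -0.34, none of which was called. The departures were 0.81 for the eighth (SE 0.13, adjusted p 8.34e-04 in edgeR) and 1.86 for the ninth (SE 0.24, adjusted p 9.60e-05). For ENSBTAG00000047073, which missed the threshold in the hypothalamus itself, the departure was -1.04 (SE 0.20, adjusted p 0.00246). These calls also held with the calf as a block, since its 4 tissues share an animal, and with each calf left out.

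**Figure D2:**
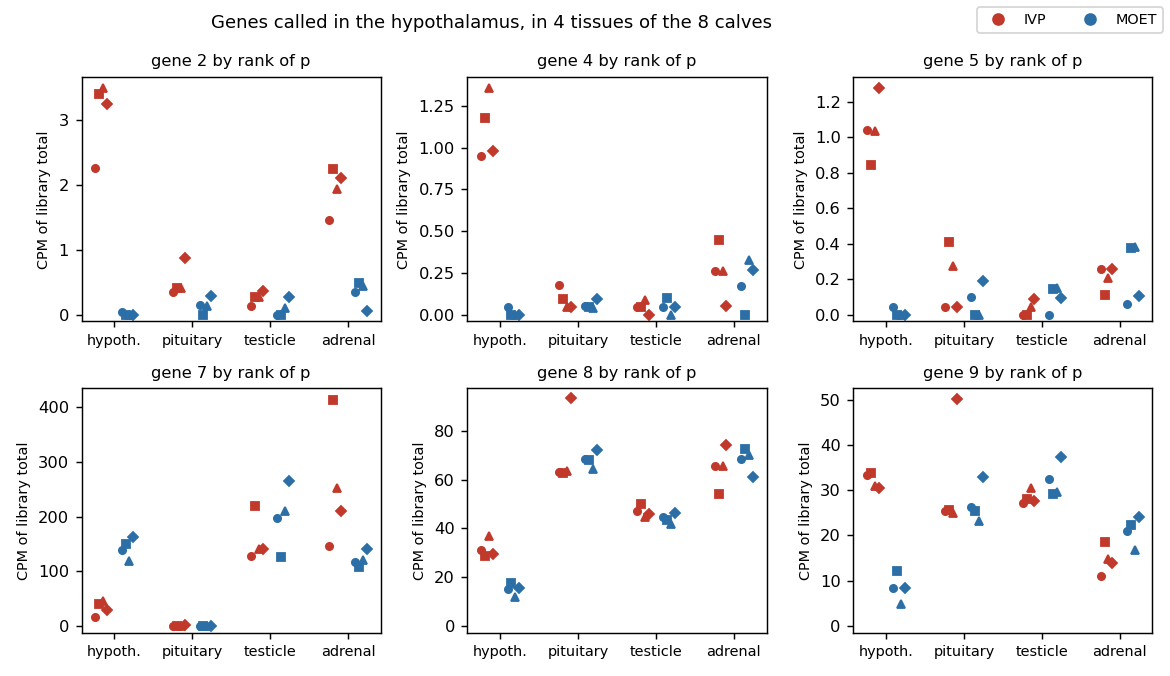
CPM of the library total (linear axis) in 4 tissues for 6 of the called genes, chosen by the contrast of the hypothalamus with the other tissues and numbered by rank of p; each point is 1 calf, IVP in red and MOET in blue, with the same marker for a calf in every tissue. The separation in the hypothalamus is fixed by how the genes were chosen; gene 7 (ENSBTAG00000004924) is higher in IVP in the adrenal.

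The direction of the differences depended on how abundant a gene was. Genes were split into 5 bins of equal size by mean log2 CPM over all 8 libraries. Across bins, lowest level to highest, the median log2 fold change IVP over MOET was 0.26, 0.21, 0.04, -0.05 and -0.11, against 0.03 over all genes. The share of genes with a positive value was 65.7, 67.9, 54.6, 43.9 and 32.9%. Low-level genes thus leaned to IVP and abundant genes to MOET. With library totals in place of the TMM factors the median of all genes moved to 0.19. The difference of bin medians, highest minus lowest, was -0.37 under both scalings. A scaling factor moves all genes of a library alike, so this likeness was fixed in advance.

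Counts at unadjusted p under 0.05 followed the same order. In the lowest bin 522 genes were higher and 189 lower in IVP, while in the highest bin 181 were higher and 666 lower. The share of genes with p under 0.05 differed little between bins, at 22.1, 23.3, 22.2, 25.9 and 26.4%, beside 24.0% of all genes. The bins therefore differed in the direction more than in the number of such genes. Genes without overlap were 183 higher and 122 lower in the lowest bin, and 119 higher and 214 lower in the highest.

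Size and error both shrank with level. The median size of the log2 fold change was 0.46, 0.35, 0.24, 0.21 and 0.19 over the bins, lowest to highest, and its median SE was 0.34, 0.22, 0.16, 0.13 and 0.12. Changes over 2-fold were mostly increases among low-level genes, 466 higher and 96 lower in the lowest bin, and were rare among abundant ones, 10 higher and 15 lower in the highest. Of the 9 called genes, 6 lay in the lowest bin, 2 in the middle bin and 1, ENSBTAG00000004924, in the highest. A gene near 0 in MOET is placed low by that alone, since bins use the mean log2 level of both groups. By mean CPM, 3 of the 9 lay under 1 CPM, 2 at 1 to 10, 4 at 10 to 100 and 0 over 100.

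DESeq2's Wald test made far more calls, 1250 of 15439 genes given an adjusted p (8.10%), and put 560 of them higher (3.63%) and 690 lower (4.47%) in IVP. By bin, lowest to highest, its higher calls numbered 125, 172, 111, 85 and 67, and its lower calls 44, 96, 113, 188 and 249. The majority direction of its calls therefore also changed with level. Of the 9 genes called by edgeR, DESeq2 called 6 and gave the other 3 no adjusted p.

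The lean with level could be followed library by library. For each library, the median deviation from the mean of the 8 was taken in the highest bin and in the lowest, and their difference, highest minus lowest, was -0.20, 0.10, -0.34 and -0.23 log2 units in IVP 3208, 3209, 5833 and 5841. In MOET 3213, 3217, 3218 and 5932 it was 0.17, 0.18, 0.48 and -0.17. IVP 3209 leaned the way of 3 MOET libraries and MOET 5932 that of 3 IVP libraries, so the groups overlapped. The means were -0.17 ± 0.19 in IVP and 0.16 ± 0.27 in MOET (SD, n = 4 each).

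Other measures of composition also differed between libraries, but not all of them ordered the libraries as the lean with level did. The 10 most counted genes of a library took 15.4, 14.1, 12.5 and 13.9% of the counts in the IVP libraries, against 17.5, 16.6, 19.1 and 16.9% in MOET. By this share the groups did not overlap, while by the lean they did. Genes with at least 10 counts numbered 16071 to 16651 in IVP and 15385 to 16239 in MOET. MOET 3218 had the fewest such genes, the smallest total and the lowest TMM factor (0.861), and IVP 5833 had the most such genes and the highest factor (1.12). The part of RNA composition in the differences by level was not tested.

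**Figure D3:**
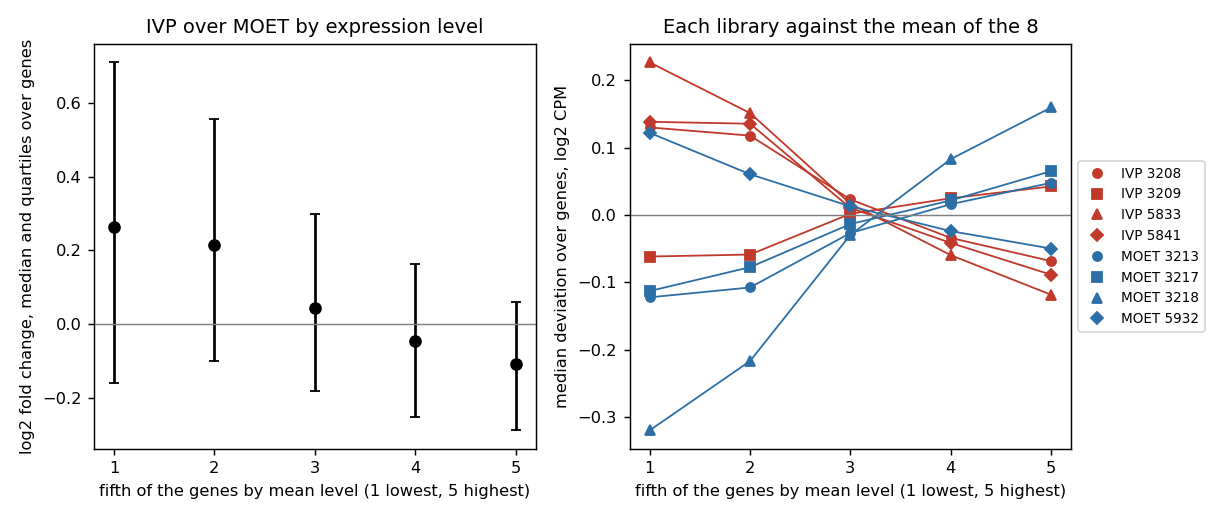
Left, median and quartiles over genes of the log2 fold change IVP over MOET in 5 bins of genes by mean level; right, median deviation of each library from the mean of all 8 in the same bins, IVP in red and MOET in blue. The median falls with level on the left, and on the right IVP 3209 and MOET 5932 run with libraries of the other origin.

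The 528 hypothalamus-enriched genes were set beside all genes, without a test of the difference. Of the 527 tested, 2 were called, beside 0.0560% of all genes. At unadjusted p under 0.05, 45 were higher in IVP and 121 lower, beside 12.1 and 11.9% of all genes. DESeq2 called 14 higher and 67 lower, beside 3.63 and 4.47%, and limma voom with quality weights called 91 higher and 181 lower, beside 29.5 and 24.2% (53.7% of all genes in either direction). The median log2 fold change was -0.11, beside 0.03 for all genes. The 129 members over 100 CPM had a median of -0.25, with 4 higher and 45 lower at unadjusted p under 0.05. All 1886 genes at that level had -0.13, with 89 higher and 408 lower. The 208 members at 10 to 100 CPM had a median of -0.18, with 14 higher and 52 lower, while all 8217 genes there had -0.01, with 887 higher and 1125 lower. The 190 members under 10 CPM had a median of 0.14, with 27 higher and 24 lower, and both called members were among them. All 5963 genes under 10 CPM had a median of 0.24, with 970 higher and 374 lower. The list took 8.16, 8.50, 7.77 and 7.84% of the counts in IVP 3208, 3209, 5833 and 5841, against 8.83, 10.04, 8.82 and 8.002% in MOET 3213, 3217, 3218 and 5932. The group means were 8.07 ± 0.335% in IVP and 8.92 ± 0.841% in MOET (SD, n = 4 each), and the ranges overlapped.

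Calves of 1 origin also differed among themselves. The first principal component of log2 CPM held 55.4% of the variance over the 8 libraries and the second 13.4%. Scores on the first were -46.1, 13.6, -48.4 and -36.2 for IVP 3208, 3209, 5833 and 5841, against 27.9, 24.0, 75.9 and -10.7 for MOET 3213, 3217, 3218 and 5932. The component did not part the origins: IVP 3209 lay among the MOET libraries and MOET 5932 lay on the IVP side of zero. With the group means removed, the first component still held 49.1%, with IVP 3209 at 51.1 and MOET 3218 at 48.6 on 1 side and MOET 5932 at -42.2 on the other.

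Likeness between libraries gave the same picture. Spearman's rho over 16066 genes was 0.961 to 0.987 between IVP libraries, 0.967 to 0.995 between MOET libraries and 0.937 to 0.986 between libraries of different origin; genes are not independent replicates, so these are descriptions. For 6 of the 8 libraries the most alike library was of the same origin. The exceptions were IVP 3209, most like MOET 3213, and IVP 5841, most like MOET 5932.

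The median SD of log2 CPM over genes was 0.26 in IVP and 0.22 in MOET, a ratio of 1.15, and 58.4% of genes had the larger SD in IVP. The spread fell with level in both groups. It was 0.47 in IVP and 0.39 in MOET in the lowest bin, and 0.18 in IVP and 0.17 in MOET in the highest. The order of the groups rested on single calves: the ratio was 0.662 without IVP 3209 and 0.942 without MOET 3213, against 1.54 without MOET 3218 and 1.51 without MOET 5932.

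Single libraries held many of the outlying values. MOET 3218 had 1905 genes more than 2-fold below the median of the other 7 libraries and 320 above. IVP 5833, 3208 and 5841 had 1074, 985 and 840 genes above, and 128, 281 and 203 below. MOET 3213 was the closest to the rest, with 35 above and 217 below. Between 60.9 and 90.8% of these genes lay in the 2 lowest bins. The 3 IVP libraries other than 3209 thus stood out by genes that were higher, and MOET 3218 by genes that were lower.

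**Figure D4:**
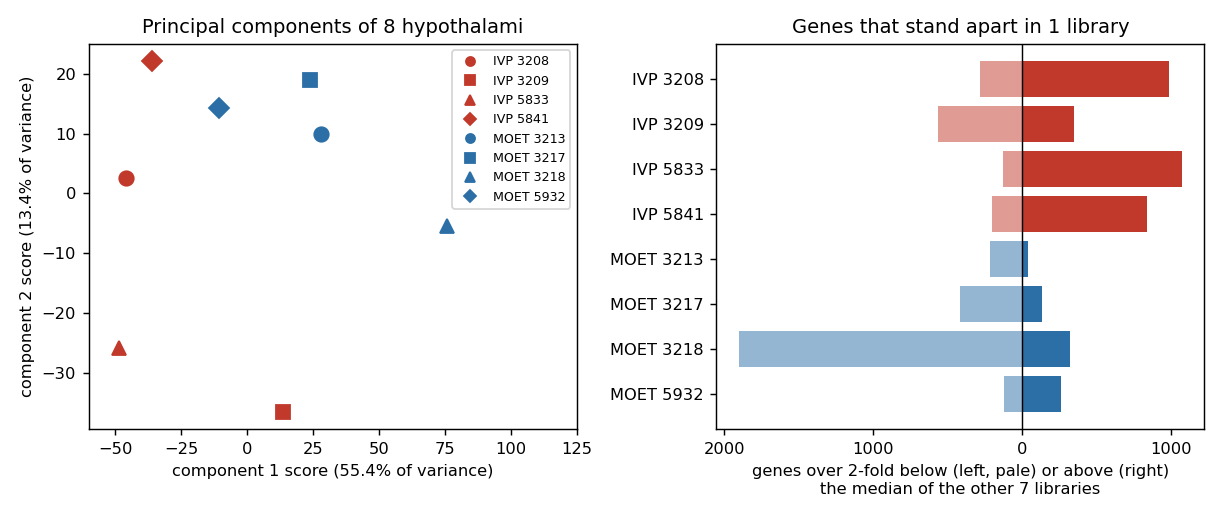
Left, scores of the 8 hypothalamus libraries on the first and second principal components of log2 CPM; right, number of genes over 2-fold above (right, full colour) or below (left, pale) the median of the other 7 libraries, IVP in red and MOET in blue. IVP 3209 lies with MOET libraries on the first component, and MOET 3218 has the most genes below the rest.

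Pituitary transcripts were followed through 181 genes with at least 8-fold higher mean CPM in the pituitary than in each other tissue, a choice made on tissue and not on origin. They took 24.1 to 38.2% of the counts in pituitary libraries. In the hypothalamus they took 0.0718, 0.174, 0.458 and 0.0637% in IVP 3208, 3209, 5833 and 5841, against 0.0722, 0.0408, 0.0579 and 0.178% in MOET 3213, 3217, 3218 and 5932. IVP 5833 was the highest library and MOET 5932 the second, and the groups overlapped. The means were 0.192 ± 0.185% in IVP and 0.0871 ± 0.0617% in MOET (SD, n = 4 each), a difference of 0.105 percentage points that was 0.0160 without IVP 5833.

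Most of the list was higher in IVP on average, and IVP 5833 was the highest library for most of its genes. The IVP mean was higher for 150 of 181 genes, and the IVP median for 136. With all MOET libraries kept, the IVP mean was higher for 126 without IVP 5833, and for 102 without IVP 5833 and 3209. Of all genes tested, 53.0% had a positive log2 fold change, and in the 2 lowest bins by level 65.7 and 67.9%. The 2 measures differ: the list's counts include genes too low to test and use library totals, while these shares come from TMM-scaled fits. With library totals the median log2 fold change of all genes tested was 0.19 in place of 0.03, which leans to IVP. IVP 5833 had the highest level of the 8 libraries in 119 of 181 genes. Of the list, 3 genes were at 0 in all 8 hypothalami, and 79 passed the filter on low counts, which a gene can do through the group where it is high. Of those 79, edgeR called 0, beside 0.0560% of all genes. At unadjusted p under 0.05, 41 were higher in IVP and 2 lower, beside 12.1 and 11.9%. DESeq2 called 22 higher and 0 lower, beside 3.63 and 4.47%, and limma voom with quality weights 46 higher and 1 lower, beside 29.5 and 24.2%. The IVP and MOET values did not overlap for 8 genes higher and 0 lower of the 79, beside 4.93 and 5.06% of all genes tested, and for 13 higher and 2 lower of all 181. Within the groups the median SD of log2 CPM over tested members was 1.08 in IVP and 0.61 in MOET, beside 0.26 and 0.22 for all genes.

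The 10 genes of the list with the highest pituitary level did not follow 1 ratio. The most abundant averaged 186802 CPM in the pituitary and the second 85749 CPM. The first had 2650, 335, 2215 and 198 counts in IVP hypothalami, against 3501, 976, 3514 and 10294 in MOET hypothalami. As a percent of the same calf's pituitary level that was 0.0574, 0.00921, 0.0488 and 0.00705% in IVP, against 0.0823, 0.0219, 0.0671 and 0.431% in MOET. All 8 hypothalami stood above the 1.41 to 6.19 CPM of this gene in testicles and 1.71 to 4.21 CPM in adrenals, with 9.72 CPM in the lowest, IVP 5841.

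The second gene kept nearly the same percent as the first in every library. It reached 0.0541, 0.00817, 0.0522 and 0.00777% of the own pituitary level in IVP, against 0.0763, 0.0185, 0.0760 and 0.331% in MOET. Both were highest in MOET 5932. Their log2 fold changes IVP over MOET were -1.96 (SE 0.89, adjusted p 0.215 in edgeR) and -1.88 (SE 0.82, adjusted p 0.205), so neither was called. The tenth gene had 7, 0, 1 and 4 counts in IVP hypothalami, against 6, 0, 7 and 15 in MOET, with the most again in MOET 5932.

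Other members stood far above that ratio. The fourth gene had 2582, 16569, 58075 and 1724 counts in IVP hypothalami, against 503, 196, 220 and 2269 in MOET. That was 1.09, 8.23, 24.5 and 0.456% of the own pituitary level in IVP, against 0.347, 0.103, 0.162 and 2.43% in MOET. IVP 5833 and 3209 were the highest libraries, and MOET 5932 lay above IVP 3208 and 5841 by percent. The log2 fold change was 4.44 (SE 1.28, adjusted p 0.154 in edgeR).

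The fifth and the ninth gene ranked the libraries in much the same way. The fifth reached 0.685, 5.60, 9.92 and 1.13% in IVP, against 0.901, 0.818, 0.342 and 3.65% in MOET. The ninth reached 2.44, 6.52, 39.9 and 0.0145% in IVP, against 0.392, 0, 0.294 and 4.44% in MOET. IVP 5833, IVP 3209 and MOET 5932 were the highest 3 libraries for both. The log2 fold change of the fifth was 2.65 (adjusted p 0.163 in edgeR) and that of the ninth 3.02 (adjusted p 0.240).

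The sixth, the seventh and the eighth gene were read in all hypothalami. The sixth had 1112, 1825, 3824 and 1958 counts in IVP, against 813, 635, 706 and 1115 in MOET, with IVP 5833 the highest library. The seventh and the eighth varied less. The seventh had 823, 1204, 1023 and 1105 counts in IVP, against 708, 398, 790 and 832 in MOET, and the eighth 850, 647, 799 and 926 against 780, 903, 460 and 870. Their log2 fold changes were 0.42 (adjusted p 0.289 in edgeR) and -0.06 (adjusted p 0.822), and that of the sixth was 1.22 (adjusted p 0.148). The third gene had 54.5, 148, 89.7 and 65.3 CPM in IVP hypothalami, against 223, 96.7, 118 and 536 CPM in MOET. The same calves' pituitaries had 2164, 3928, 1953 and 2800 CPM in IVP, against 19570, 5305, 5065 and 60444 CPM in MOET, so by level MOET 5932 and 3213 were highest in both tissues. As a percent of the own pituitary level it was 2.52, 3.76, 4.59 and 2.33% in IVP, against 1.14, 1.82, 2.33 and 0.887% in MOET. By that measure all 4 IVP libraries lay above the MOET libraries, IVP 5841 only narrowly, and MOET 5932 was the lowest.

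Set against the most abundant gene, the rest of the list was in excess in each library. The enrichment rule admits members at a far higher percent of the pituitary level than this gene had. Such an excess is therefore in part fixed by how the list was made, and the values below are descriptions. Had every other member reached only the percent of the first gene, the list without its 2 top genes would come to 2.7005, 0.145, 0.286 and 0.420% of its measured level in IVP 3208, 3209, 5833 and 5841. In MOET 3213, 3217, 3218 and 5932 it would come to 6.19, 1.67, 4.60 and 30.1%. For IVP 5833 that is 12.7 CPM of 4434 CPM, and for MOET 5932 it is 328 CPM of 1089 CPM. The median percent of the own pituitary level over the 23 members with at least 100 CPM in the pituitary was 2.29, 5.60, 9.82 and 1.72% in IVP, against 1.14, 0.892, 1.13 and 3.30% in MOET. No single percent described all members within a library.

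The direction of the list's share turned with the enrichment required. Enrichment is measured against each other tissue, these hypothalami included, so a stricter limit drops genes with a high mean in the hypothalamus. IVP 5833 was the highest library for most of the list, so the turn is in part fixed by that choice. At 32-fold or more (35 genes) the share, IVP minus MOET, was -0.0347 percentage points, and at 100-fold or more (14 genes) it was -0.0222. Without MOET 5932 these were -0.0118 and -0.00929. At 4-fold or more (371 genes) it was 0.0974, and -0.0125 without IVP 5833. With each library's share as a covariate, on the log2 scale, 8 genes were called in the hypothalamus, 7 higher and 1 lower in IVP, and 6 of them were among the 9 above. What part pituitary cells in the dissection had in these levels was not tested.

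**Figure D5:**
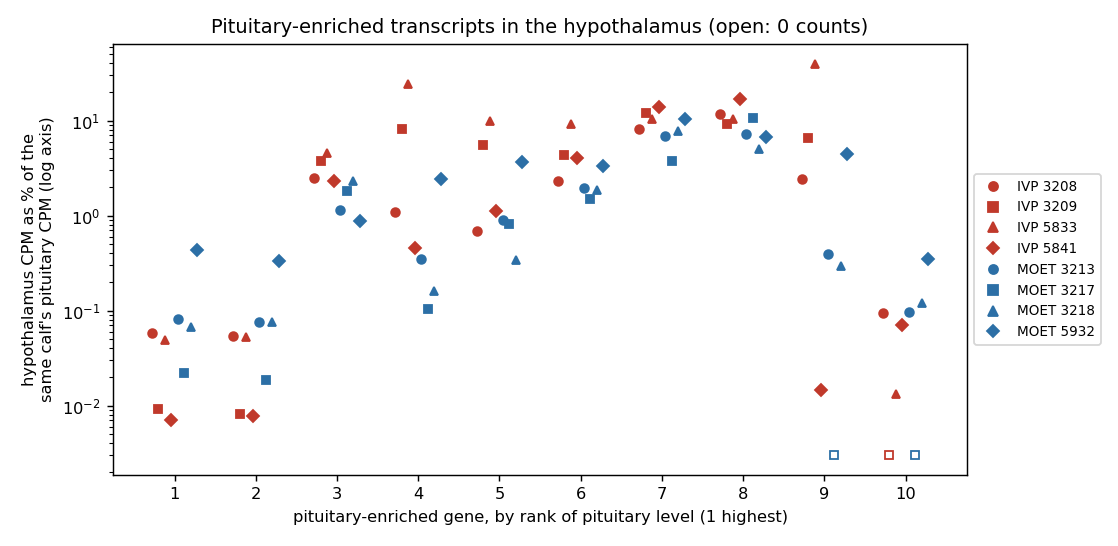
Level of the 10 pituitary-enriched genes with the highest pituitary CPM in each hypothalamus, as a percent of the same calf's pituitary level (log axis); IVP calves in red, MOET calves in blue, open symbols for 0 counts. Genes 1, 2 and 10 stay at or below 0.431% and are highest in MOET 5932, while genes 4, 5 and 9 are highest in IVP 5833.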

How the data were processed

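RNA of the hypothalamus was measured in 8 calves, with 24 libraries of 3 other tissues used for comparison. Per the labels' protocols, libraries held poly(A)-selected RNA without strand information, and SOAPnuke was used to filter the paired-end reads. The authors' tools were HTSeq and STAR 2.7, with build bosTau9, per the submitters' processing notes; no annotation release or counting setting is given in the sources used here. The table holds deposited raw counts for each gene, and reads of overlapping or near-identical genes cannot be assigned with certainty. In the 8 libraries a floor of 3 counts stands for 0.135 to 0.149 CPM, and 4 calves per group limit the precision. Exact 95% intervals on ratios of summed counts cover counting error only.

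Genes were kept with filterByExpr (minimum count 10, minimum total 15), given TMM factors, and IVP was compared with MOET in the 8 libraries by edgeR's quasi-likelihood test (robust) and Benjamini-Hochberg adjustment at 0.05. The SE is the size of the log2 fold change over the root of F. The departure from other tissues was a contrast in 1 edgeR fit of 32 libraries without a calf block. Levels, spread (log2 CPM, prior count 2) and tissue-enriched lists, taken from the 18242 genes kept over 32 libraries, are descriptions with no test. Tests ran in R 4.3.3 with DESeq2 1.42.0, limma 3.58.1 and edgeR 4.0.16, and figures in matplotlib 3.10.9 under Python 3.11.15. The tests were checked on simulated data with known changes.

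Groups came from the labels. Among 12 pairs of libraries of 1 origin 0 were identical, and chi-square per degree of freedom was 11.1 to 63.0, more than sampling noise gives. Per the labels, same-numbered libraries come from the same animal, which pairs tissues and leaves IVP and MOET calves unpaired. Hypothalamus deviations correlated with those of the calf's other tissues by a mean r of -0.131 to 0.330. The members and lists were chosen with earlier results of these data known. The rule for naming took all called genes, the next by p to 10 per direction, and the 10 pituitary-enriched genes of highest pituitary level; without symbols, at most 2 IDs per direction are printed. The planned lists of markers and pathways need symbols and were not used. Alternatives were other size factors, tests, filters, covariates, fits, bins, enrichment limits and prior counts, and each calf left out.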

Additional observations from a re-analysis of the deposited data

Results flagged for a closer look

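For 26 sets of values, each with an IVP and a MOET group of 4 libraries, the 52 groups were searched for a library far from the others of its group. A library was marked in 10, where chance marks about 1 in 20 groups, and the sets share libraries and so are not independent. In 4 of them it was MOET 3213, for the called genes ranked 2 to 5 by p, at 0.0470 CPM each, which is 1 count beside 0 in the other 3 MOET libraries. Beside 3 values of 0 any count stands apart, so the rate of 1 in 20 is no guide for these 4. In 5 it was MOET 5932 in pituitary-enriched transcripts, as a percent of its own pituitary level: 0.431% for the most abundant gene, 2.43% for the fourth, 3.65% for the fifth, 4.44% for the ninth and 3.30% for the median over genes. In the last it was IVP 5833 at 39.9% for the ninth gene.

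A set of 7 genes differed between the hypothalamus and the mean of the other tissues in the log2 fold change IVP over MOET, by edgeR's test of that difference. They were chosen for their hypothalamic difference, so the departure is in part fixed by that choice. The values were 5.33 for ENSBTAG00000024901, 5.47 and 5.71 for the fourth and the fifth called gene, and -2.77 for ENSBTAG00000004924. Those of ENSBTAG00000024901 and of the fourth and the fifth called gene rest on few counts and are uncertain in size. The other values were 0.81 and 1.86 for the eighth and the ninth called gene, and -1.04 for ENSBTAG00000047073.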

How the results depend on the processing

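The count of 9 called genes was 6 to 8 with DESeq2 size factors, no filter, library totals, the first digit of the animal number or the pituitary-enriched share as a covariate. It was 5 with age as a covariate, 1250 by DESeq2 (560 higher, 690 lower), 8628 by limma voom with quality weights (4733 higher, 3895 lower) and 2018 with all 32 libraries in 1 fit (1121 higher, 897 lower). With 1 calf left out it ran from 1 without MOET 3213 to 44 without IVP 3209 (20 higher, 24 lower), with 3 without MOET 5932, 4 without MOET 3217 and 25 without IVP 5841 (all higher). Over the 11 named genes, 132 recomputed values kept direction and side of the threshold, 46 lost the call, 6 gained it and 0 changed sign. The cause of these moves was not tested.

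The 2332 genes departing from the other tissues were 3300 with the calf as a replicate block and 8949 by limma voom with the calf as a random block. Among the named genes given a value, the calf block changed no call. Left-out calves gave 262 to 5719, of which the removal of MOET 3218 gave 271, of MOET 3217 976 and of MOET 5932 5619, and that of IVP 5833 gave 457, of IVP 5841 1142 and of IVP 3208 1556.

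The drop with level stayed between -0.28 and -0.50 over left-out calves and other bins. Other size factors move all genes of a library alike, so they could hardly change it. The pituitary-enriched share, IVP minus MOET, was -0.0347 points at 32-fold and -0.0222 at 100-fold enrichment. That limit uses the levels in these hypothalami, so its effect is in part fixed. The share difference was 0.0275 without the 10 most abundant genes, 0.127 without the 2 most abundant and 0.0160 to 0.148 with 1 calf left out. The spread ratio ran from 0.662 without IVP 3209 to 1.54 without MOET 3218, with 0.942 without MOET 3213. Library totals, the left-out calves and DESeq2 size factors for the level bins, the removal of 2 genes, and left-out calves at other enrichments, were added after the data were seen. At these depths a gene under the floor of 3 counts cannot be told from an absent one.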

Other observations

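Genes enriched in the other organs also had some counts in the hypothalamus. The 412 testicle-enriched genes took 0.138 ± 0.00509% of the counts in IVP hypothalami and 0.121 ± 0.00676% in MOET (SD, n = 4 each), with no overlap between the groups. Of the 100 that passed the filter, edgeR called 0, beside 0.0560% of all genes. At unadjusted p under 0.05, 22 were higher and 8 lower in IVP, beside 12.1 and 11.9%. For all genes under 10 CPM those shares were 16.3 and 6.27%, and the testicle-enriched genes were not split by level. DESeq2 called 6 higher and 5 lower, beside 3.63 and 4.47%, and limma voom 34 higher and 10 lower, beside 29.5 and 24.2%. The 122 adrenal-enriched genes took 0.0139 ± 0.00189% in IVP and 0.0134 ± 0.00089% in MOET (SD, n = 4 each), with overlap. Of the 36 tested, edgeR called 0, and 6 were higher and 7 lower at unadjusted p under 0.05, beside the same 12.1 and 11.9% of all genes. DESeq2 called 4 higher and 1 lower, beside 3.63 and 4.47%, and limma voom 9 higher and 9 lower, beside 29.5 and 24.2%.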
